A study of Oryctolagus cuniculus with 134 samples.

Results

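The pulmonary valve (PV) and the tricuspid valve (TV) of chow-fed rabbits were compared within the same animals. The comparison held the 14 of 134 RNA-seq libraries whose treatment was Control (Ctrl) and whose tissue was PV (7 libraries) or TV (7 libraries), and every one of the 7 rabbits gave both valves. The series covered 27 male New Zealand White rabbits, 5 tissues (aorta, aortic valve (AoV), mitral valve (MV), PV and TV) and 4 treatments. Ctrl rabbits ate standard chow and received no vitamin D2, and their valves were dissected at the end of a 16-week protocol that began at 12 weeks of age. CHT rabbits ate 0.3% cholesterol, Lard rabbits ate 5% lard, and both groups received vitamin D2 at 25000 U/day per 2.5 kg of body weight for 15 days. IR/CHT rabbits had the CHT regimen and 24 Gy of X-ray irradiation of the heart, aimed at the aortic valve and thoracic aorta, in 3 fractions of 8 Gy after 8 weeks. Each library was made from a whole dissected valve, so fewer cells of a type and less RNA per cell cannot be told apart in any value below.

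The PV is a semilunar valve at the outlet of the right ventricle, and the TV is an atrioventricular valve at its inlet, whose leaflets are tied by chordae to papillary muscles. Semilunar valves arise from outflow tract cushions, which receive cells of the cardiac neural crest and the second heart field, whereas atrioventricular valves arise from cushions of the atrioventricular canal, which receive epicardium-derived cells. Interstitial cells in both valves keep a layered matrix of collagen, proteoglycan and elastic fibre under a sheet of endothelium, and heart muscle continues for some distance into the base of atrioventricular leaflets.

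Total gene counts were 14120848 to 20436724 in PV (median 16354082) and 14866435 to 21754353 in TV (median 17498901). Levels are given as CPM (counts scaled to a common library total, with TMM factors), a scale for comparing libraries and not genes of unlike length. The TV library of replicate L168 stood apart. Its median correlation with the other TV libraries was 0.799 against 0.961 to 0.968 for each of the others, and the library closest to it was the AoV of the same rabbit (r = 0.972). In TV L168 the fibrillar collagen COL1A1 was at 8860 CPM against 365 to 525 CPM in the other 6 TV libraries. On a scale over the 27 Ctrl valve libraries, the same library had ISL1 at 0 and TBX5 at 36.1 CPM. The AoV of that rabbit had ISL1 at 9.78 CPM and TBX5 at 1.48 CPM, so for these position markers TV L168 had the levels of a TV. Calls are therefore given with all 7 rabbits, with the change beside them where the call of a gene named by rule was lost or gained without this rabbit, and the list counts without it are given together after the lists. Among the 20 rabbits of the other treatments, a Lard rabbit had a library labelled PV (L271) with the marker levels of a TV and a library labelled TV (L272) with those of a PV, and the comparison that uses it is given with and without that rabbit.

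A gene was called when the edgeR quasi-likelihood test with the rabbit as a block gave a Benjamini-Hochberg adjusted p under 0.05 and the fold change was over 1.5. Of 13543 genes tested, 1131 (8.35%) were called, of which 343 (2.53% of those tested) were higher in PV and 788 (5.82%) were higher in TV. The direction was the same in 7 of 7 rabbits for 313 of the 343 and for 674 of the 788. Differences over 4-fold were found for 26 genes higher in PV and 302 higher in TV, and the median log2 fold change over all genes tested was -0.015 (PV minus TV throughout). Without the rabbit of TV L168, 1695 of 13647 genes (12.4%) were called, 496 (3.63%) higher in PV and 1199 (8.79%) higher in TV. Of the 343 and 788 genes, 293 and 733 were called in the same direction again. Each count over a gene list below is to be read against the shares over all genes, 2.53% higher in PV and 5.82% higher in TV, or 3.63% and 8.79% where the count is without the rabbit of TV L168. Leaving out another rabbit lowered the count, to 662 without that of PV L153, 626 without that of PV L184, 517 without that of PV L279 and 654 without that of PV L242, with the fold change of every called gene named by rule keeping its sign.

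Regulators of position gave some of the widest separations between the valves. ISL1, a LIM homeobox factor of the second heart field, ranged from 8.82 to 13.2 CPM in PV (median 10.8) and from 0 to 0.432 CPM in TV (median 0.173). It was higher in PV in 7 of 7 rabbits, with a log2 fold change of 5.96 ± 0.52 (SE; edgeR adjusted p = 0.000701). HOXA2, a positional homeobox gene of the hindbrain and pharyngeal arches, was at 2.34 to 5.53 CPM in PV and rested on only 4 counts over all TV libraries, with at most 0.122 CPM in any of them (log2 fold change 6.57, adjusted p = 0.000441). No TV library overlapped a PV library for ISL1 or HOXA2. EYA1, a transcriptional coactivator of pharyngeal and neural crest development, had a median of 11.9 CPM in PV and 1.65 CPM in TV (log2 fold change 2.58 ± 0.34, adjusted p = 0.00336), and its groups overlapped through TV L201 at 7.09 CPM. Of 9 tested HOX and other positional homeobox genes, 2 were called higher in PV, HOXA2 among them, and none in TV. Of 10 tested neural crest and outflow tract factors, ISL1 and EYA1 were higher in PV, and MSX2 and EYA4 were higher in TV. The latter list gave, without the rabbit of TV L168, 5 higher in PV and 3 in TV.

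TBX5, a T-box factor of the atria and the atrioventricular canal, had the reverse pattern. It was at 0.059 to 2.51 CPM in PV (median 0.67) and at 38.7 to 106 CPM in TV (median 56.7), and the log2 fold change was -6.10 ± 0.59 (adjusted p = 0.00103). TCF21, a marker of epicardium-derived fibroblasts, was at 5.85 to 9.03 CPM in PV and 31.8 to 94.6 CPM in TV (log2 fold change -2.83 ± 0.22, adjusted p = 0.000395). MEOX2, a homeobox gene of mesenchyme and vessels, was at 2.29 to 7.08 CPM in PV and 9.56 to 42.2 CPM in TV (-2.63 ± 0.15, adjusted p = 0.000131). The lowest TV library was above the highest PV library for each of the 3. Of 14 tested transcription factors of epicardium-derived cells and atrioventricular cushions, 7 were higher in TV and 1, ZFHX4, was higher in PV, with a median log2 fold change of -0.69. Besides TBX5, TCF21 and MEOX2 the 7 included NR2F2 (-0.60), WT1 (-1.89) and NKX2-5 (-4.53), the last at 0 to 0.481 CPM in PV. The calls of NR2F2, WT1 and NKX2-5 were lost when certain rabbits were left out, those of PV L153, L200 and L263 for NR2F2, of PV L153 and L279 for WT1 and of PV L184, L279 and L242 for NKX2-5.

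MSX2, a homeobox target of BMP signalling, was 3.9-fold higher in TV, with 9.19 to 15.6 CPM against 2.29 to 4.94 CPM in PV (adjusted p = 0.000722). EBF2, a factor of mesenchymal and adipocyte precursors, was at 1.16 to 5.22 CPM in PV and 31.1 to 85.8 CPM in TV (log2 fold change -3.98 ± 0.35, adjusted p = 0.00071). Several well-known valve and cushion regulators were not called by edgeR. GATA4 had medians of 43.8 CPM in PV and 35.4 CPM in TV (adjusted p = 0.901), SOX9 of 53.7 and 34.0 CPM (adjusted p = 0.487), TBX20 of 332 and 400 CPM (adjusted p = 0.109) and TBX2 of 1.18 and 2.29 CPM (adjusted p = 0.105, but 0.0185 with DESeq2). HAND2 reached an adjusted p of 0.0223 at a fold change of 1.36, below the fold threshold. For SOX9 and TBX2 the call depended on 1 library. TV L168 was far above the other TV libraries, which lay at 19.4 to 42.9 CPM for SOX9 and 30.8 to 42.1 CPM for GATA4. Without its rabbit the log2 fold change of SOX9 was 0.81 (adjusted p = 0.00326) and passed the fold threshold, whereas that of GATA4 was 0.36 (adjusted p = 0.00657) and did not. TBX2 was at 28.4 CPM in TV L168 and 0.678 to 4.34 CPM in the other TV libraries, and it was called higher in TV without that rabbit (-0.98, adjusted p = 0.0335).

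**Figure D1:**
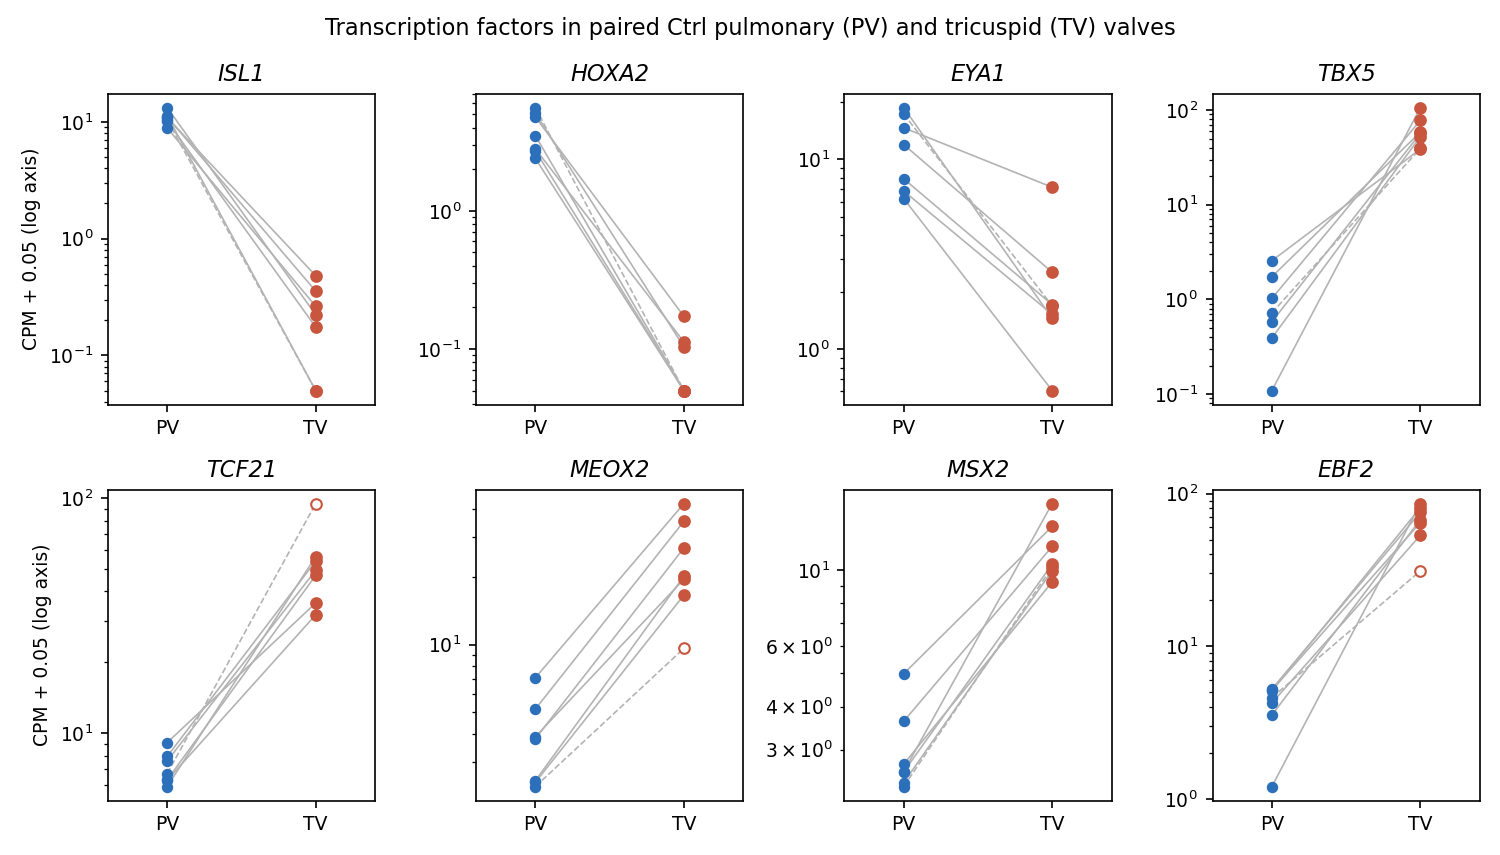
CPM plus 0.05 (log axis) of transcription factors in the 7 PV and 7 TV libraries of Ctrl rabbits, with a line joining the valves of each rabbit. PV libraries are blue and TV libraries red, and the hollow point with a dashed line is TV L168. ISL1 stayed at or below 0.432 CPM in TV and at or above 8.82 CPM in PV, and TBX5 stayed at or below 2.51 CPM in PV and at or above 38.7 CPM in TV.

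Some matrix genes were higher in PV. POSTN (periostin, a matricellular protein that binds collagen) was at 3738 to 7556 CPM in PV (median 5505) and 1058 to 3090 CPM in TV (median 2033), with a log2 fold change of 1.44 ± 0.09 (adjusted p = 0.000223). COL12A1, which encodes a fibril-associated collagen, was at 2922 to 5111 CPM in PV and 911 to 1925 CPM in TV (1.58 ± 0.11, adjusted p = 0.000233). Neither gene had an overlap between the groups. Of the basement membrane collagen genes, COL4A3 (1.28, adjusted p = 0.00108) and COL4A4 (1.09, adjusted p = 0.00151) were higher in PV, whereas COL4A1 was higher in TV in 7 of 7 rabbits (-1.61 ± 0.41, adjusted p = 0.037; -1.25 and 0.0145 without the rabbit of TV L168). COL4A2, also higher in TV in 7 of 7 rabbits, was not called with all of them (-1.20, adjusted p = 0.215) but was without that rabbit (-0.73, adjusted p = 0.00453). FBN2, which encodes the microfibril protein fibrillin-2, was 2.64-fold higher in PV (medians 206 and 88.9 CPM, adjusted p = 0.00322), and LOX, the enzyme that cross-links collagen and elastin, was 1.61-fold higher (adjusted p = 0.0108).

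Proteoglycan genes were called in both directions. VCAN (versican, the large hyaluronan-binding proteoglycan of valves) had medians of 6242 CPM in PV and 3647 CPM in TV, was higher in PV in 6 of 7 rabbits and had a log2 fold change of 0.78 ± 0.19 (adjusted p = 0.0348). Its call was lost without the rabbit of PV L153, L184, L279, L263 or L242. HAPLN1, the link protein that ties versican and aggrecan to hyaluronan, was at 113 to 152.5 CPM in PV and 39.0 to 79.8 CPM in TV (1.30 ± 0.17, adjusted p = 0.00336). The hyaluronan synthase HAS2 (1.60-fold) and the small leucine-rich proteoglycans OMD (2.46-fold) and LUM (2.11-fold) were higher in PV as well. EPYC and KERA are of the same class as OMD and LUM. EPYC (log2 fold change -2.51 ± 0.25, adjusted p = 0.00111) and KERA (-1.85 ± 0.21, adjusted p = 0.00181) were higher in TV with no overlap between the groups. EPYC had medians of 20.4 CPM in PV and 115 CPM in TV, and KERA of 8.71 and 35.7 CPM. Among 31 tested proteoglycan and hyaluronan genes, 5 were higher in PV and 4 in TV, with a median log2 fold change of -0.04. ACAN (aggrecan) was not called (adjusted p = 0.402), but TV L168 at 336 CPM was far above the 28.4 to 72.6 CPM of the other TV libraries, and without its rabbit ACAN was 0.85 higher on the log2 scale in PV (adjusted p = 0.000265).

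Of 29 tested collagen genes 3 were higher in PV and 8 in TV, with a median log2 fold change of -0.21. The counts were 7 and 11 without the rabbit of TV L168, with a median of 0.17. The 8 included COL6A6 (-1.38 ± 0.13, adjusted p = 0.000901), which was at 91.9 to 218 CPM in PV and 411 to 505 CPM in TV, and COL15A1 (-2.08, adjusted p = 0.00264), which lies next to basement membranes. COL1A1 was higher in TV in 7 of 7 rabbits and its groups did not overlap, but its adjusted p was 0.174 with all rabbits (0.0379 with DESeq2) and 2.19e-05 without the rabbit of TV L168 (log2 fold change -0.81). COL3A1 had medians of 2707 CPM in PV and 3281 CPM in TV (adjusted p = 0.14), and stayed under the fold threshold without that rabbit (-0.28). TNC (tenascin-C) had medians of 75.9 and 59.0 CPM (adjusted p = 0.832). Of the other TV-higher matrix genes, IGFBP5, which encodes a secreted binding protein of insulin-like growth factors, was at 475 to 887 CPM in PV and 1333 to 1688 CPM in TV (-1.16 ± 0.11, adjusted p = 0.00108). FBLN2 (fibulin-2) was 7.4-fold and FBLN7 (fibulin-7) 2.72-fold higher in TV.

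Among enzymes that build or trim the matrix, P3H2, a prolyl hydroxylase of basement membrane collagen, had medians of 129.8 CPM in PV and 62.6 CPM in TV, with no overlap (log2 fold change 1.07 ± 0.07, adjusted p = 0.000236). PAPSS2, which makes the sulfate donor for glycosaminoglycans, was at 138 to 217 CPM in PV and 54.9 to 105 CPM in TV (1.15 ± 0.09, adjusted p = 0.000344). ADAMTS3, a procollagen N-proteinase, and the metalloproteinase inhibitor TIMP4 were 1.72-fold and 1.86-fold higher in PV. PAPPA, a metalloproteinase that cleaves binding proteins of insulin-like growth factors, was 4.11-fold higher in TV (24.0 and 80.6 CPM at the median). Of 26 tested proteases and inhibitors 3 were higher in PV and 4 in TV, against 2.53% and 5.82% of all genes.

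Genes linked to mineral and cartilage were called in both directions. BGLAP (osteocalcin) was at 2.01 to 11.2 CPM in PV and 0.115 to 0.6247 CPM in 6 TV libraries, but at 11.3 CPM in TV L168 (log2 fold change 3.13, adjusted p = 0.0222; 3.78 and 3.34e-05 without that rabbit). The call of BGLAP was lost without the rabbit of PV L153, L184, L279, L263 or L242. UCMA, a secreted cartilage protein, was 2.11-fold higher in PV, and the phosphate transporter SLC20A2 was 2.83-fold higher in TV. Of 15 tested calcification genes, 4 were higher in PV (BGLAP, OMD, ENPP1 and PHEX) and 2 in TV (MSX2 and SLC20A2). MATN1 (matrilin-1) was 1.63-fold higher in TV, a call that was lost whichever rabbit was left out.

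**Figure D2:**
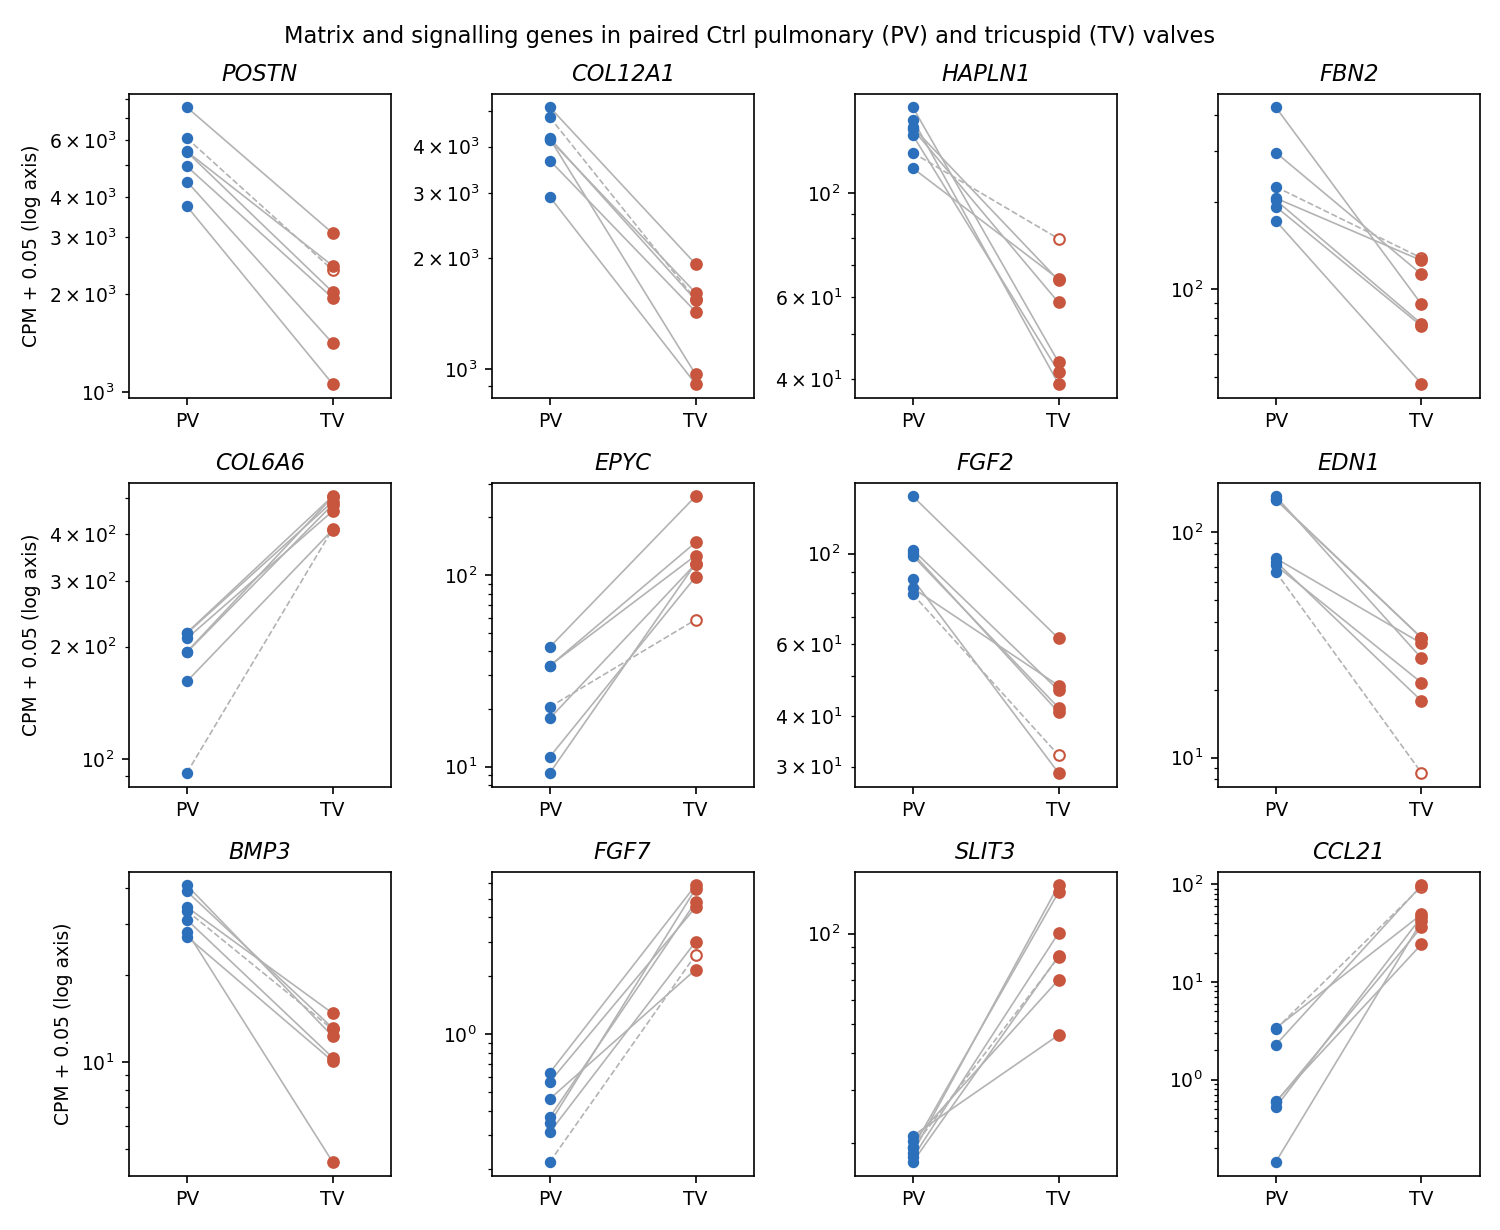
CPM plus 0.05 (log axis) of matrix and signalling genes in the 7 PV (blue) and 7 TV (red) libraries of Ctrl rabbits, joined by rabbit. The hollow point with a dashed line is TV L168. POSTN and COL12A1 were higher in PV in 7 of 7 rabbits, and SLIT3, FGF7 and EPYC were higher in TV in 7 of 7 rabbits.

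Secreted signals separated the valves in both directions. Higher in PV with no overlap were PTN (pleiotrophin, a heparin-binding growth factor), at 122 to 249.4 CPM against 42.6 to 67.7 CPM (log2 fold change 1.64 ± 0.12, adjusted p = 0.000371), and FGF2, at 79.5 to 138 CPM against 28.9 to 61.9 CPM (1.22 ± 0.10, adjusted p = 0.000441). EDN1 (endothelin-1, a vasoconstrictor peptide of endothelium) was at 66.5 to 144 CPM in PV and 8.51 to 34.0 CPM in TV (2.06 ± 0.18, adjusted p = 0.000726). NRG1 (neuregulin-1) was 2.84-fold higher in PV and its receptor gene ERBB3 2.07-fold higher. FGF7, a mesenchymal ligand that acts on epithelium, was higher in TV, at 2.10 to 5.81 CPM against 0.168 to 0.58 CPM in PV (-3.43 ± 0.28, adjusted p = 0.000444). VEGFA was higher in TV as well, at 16.7 to 87.6 CPM against 5.27 to 11.3 CPM (-2.0 ± 0.24, adjusted p = 0.00255). Of 36 tested FGF, PDGF, VEGF and neuregulin genes, 3 were higher in PV and 5 in TV.

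In the TGF-beta and BMP pathway 7 of 40 tested genes were higher in PV and 2 in TV, with a median log2 fold change of 0.10. The 7 included the ligands BMP3, at 27.1 to 40.9 CPM in PV and 4.46 to 14.7 CPM in TV (1.65 ± 0.17, adjusted p = 0.00129), and BMP6 (1.44, adjusted p = 0.008), and the activin antagonist FST (follistatin; 1.74 ± 0.18, adjusted p = 0.00117). The 2 higher in TV were the co-receptor TGFBR3 (-0.85 ± 0.08, adjusted p = 0.000777) and the ligand BMP5 (-1.10, adjusted p = 0.00734). In the Wnt pathway 4 of 41 tested genes were higher in each valve. The co-receptor LRP6 had medians of 514 CPM in PV and 342 CPM in TV (1.56-fold) and the secreted activator RSPO3 was 1.51-fold higher in PV, both under the fold threshold without the rabbit of TV L168 (the call of RSPO3 was lost also without that of PV L279 or L242), whereas DKK3, a secreted dickkopf family protein, was 2.39-fold higher in TV. HEY2, a Notch effector, was the 1 called gene of 18 tested Notch and Hedgehog genes and was 1.63-fold higher in PV.

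Axon guidance genes, which also pattern cushions and vessels, gave 5 of 55 higher in PV and 8 higher in TV. SLIT3, a secreted ligand of ROBO receptors, was at 17.3 to 21.1 CPM in every PV library and at 45.8 to 145 CPM in TV (-2.23 ± 0.22, adjusted p = 0.00108). The receptor ROBO1 ran the other way, at 1.58-fold higher in PV (adjusted p = 0.00367). NRP1 (2.51-fold), NRP2 (1.99-fold) and their ligand SEMA3A (2.93-fold) were higher in TV, and SEMA3D was 1.89-fold higher in PV.

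Other genes named by their p value or fold change, or held by a list, follow. DCHS2, a large cadherin, was at 3.63 to 6.86 CPM in PV and 22 to 79.8 CPM in TV (-3.52 ± 0.20, adjusted p = 0.000131). FGL2 (fibrinogen-like 2) was 4.61-fold and CARD6 3.73-fold higher in TV. In PV, GALNT13, a glycosyltransferase that starts O-linked chains, was at 4.31 to 9.86 CPM against 0.0557 to 0.437 CPM in TV (4.82 ± 0.35, adjusted p = 0.000342). PRUNE2 was at 888 to 1267 CPM in PV and 400 to 557 CPM in TV, and the serine protease family gene PRSS35 (2.56-fold) and the G protein regulator RGS4 (2.57-fold) were higher in PV. TRHR, the receptor of thyrotropin-releasing hormone, was 7.53-fold higher in PV at a low level (medians 5.19 and 0.576 CPM). KCNK2, a stretch-gated potassium channel, was at 54.3 to 83.2 CPM in PV and 7.43 to 28.6 CPM in TV (2.22 ± 0.21, adjusted p = 0.00102).

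Among vessel genes, those of lymphatic endothelium leaned to the TV. Of 14 tested endothelial genes, ERG was higher in PV (1.69-fold), VWF (1.71-fold) and PLVAP (3.00-fold) were higher in TV, and PECAM1 was not called (medians 574.1 and 448 CPM, adjusted p = 0.181). Of 6 tested lymphatic endothelial genes, 5 were higher in TV, with a median log2 fold change of -1.35. CCL21, the chemokine of lymphatic vessels, was at 0.0936 to 3.31 CPM in PV and 24.3 to 97.6 CPM in TV (-5.57 ± 0.46, adjusted p = 0.000488). MMRN1, a multimerin of platelets and lymphatic endothelium, was at 0.0685 to 3.77 CPM in PV and 31.3 to 109 CPM in TV (-5.80 ± 0.60, adjusted p = 0.00129), and LYVE1, the hyaluronan receptor of lymphatic endothelium and some macrophages, was 1.94-fold higher in TV. LYVE1 was also the 1 called gene of 16 tested macrophage genes, whose median log2 fold change was 0, and CD68 had medians of 17.2 and 15.4 CPM (adjusted p = 0.995). Of 15 tested complement and acute phase genes edgeR called 0, 3 had an unadjusted p under 0.05 and DESeq2 called 1.

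Smooth muscle genes leaned to the PV. Of 17 tested, 6 were higher in PV and 1, the intermediate filament gene DES, was higher in TV. ACTA2 (smooth muscle actin) was at 109 to 390 CPM in PV and at 21.3 to 34.8 CPM in 6 TV libraries, with TV L168 at 130 CPM (log2 fold change 2.38 ± 0.34, adjusted p = 0.00448). KCNMB1, the smooth muscle subunit of the large-conductance potassium channel, was 4.94-fold higher in PV, the actin-binding SYNPO2 was 1.60-fold higher, and RGS5 was 2.01-fold higher. RGS5 was the 1 called gene of 7 tested pericyte genes, whose median log2 fold change was -0.25, toward TV. MYH11, the smooth muscle myosin, had medians of 132 and 56.3 CPM but only just passed (adjusted p = 0.0499), and it was not called without the rabbit of TV L168 (adjusted p = 0.126) nor without that of PV L153, L184, L279, L263 or L242. PV L263 had the highest ACTA2 (390 CPM, others at most 179.3 CPM). The part of arterial wall at the cut edge of the valve in these values was not tested.

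The called genes of both general heart muscle lists lay on the TV side. The summed level of 19 tested sarcomere genes was 492 to 6990 CPM in PV (median 674) and 1260 to 51500 CPM in TV (median 15600), and it was higher in TV in 7 of 7 rabbits. Of these 19, 16 were called higher in TV and none in PV, and of 24 other heart muscle genes 17 were higher in TV and none in PV. The median log2 fold changes of the lists were -4.84 and -4.30. Without the rabbit of TV L168, 7 and 14 were called, with medians of -5.02 and -4.13. The levels varied within each valve: PV L200 and PV L263 summed to 6990 and 6210 CPM, above the TV L168 value of 1260 CPM. CASQ2 (the calcium store protein calsequestrin) and the Z-disc genes LDB3 and MYOZ2 were 71.9-fold, 39.9-fold and 27.8-fold higher in TV. The call of CASQ2 was lost without the rabbit of PV L153, L184 or L279, and that of MYOZ2 without that of TV L168 (adjusted p = 0.0573) or of PV L153, L184, L279 or L242. MYL2 (the regulatory light chain of ventricular myosin) was not called by edgeR (28.2-fold, adjusted p = 0.0646) but was by DESeq2 (adjusted p = 9.55e-06) and limma-voom (0.00922), with PV libraries at 2.74 to 489 CPM and TV libraries at 61.5 to 3212 CPM. ATP2A2, the calcium pump of the sarcoplasmic reticulum, had medians of 228.4 and 1134 CPM.

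MYL4 separated the valves even where MYL2 was present in both. The atrial list summed to 160 to 285 CPM in PV and 775 to 2280 CPM in TV, with no overlap, and 7 of its 8 tested genes were higher in TV. DKK3, a secreted protein that the Wnt list also holds, made up 211.2 of the 285 CPM in PV L167 and 749 of the 902 CPM in TV L168. MYL4, the atrial light chain of myosin, was at 0.205 to 1.30 CPM in PV and 44.3 to 1255 CPM in TV (log2 fold change -9.57 ± 0.52, adjusted p = 0.000131). In PV L200 and PV L263, where MYL2 was at 489 and 470 CPM, MYL4 was at 0.962 and 0.983 CPM. NPPA, which encodes the atrial natriuretic peptide, was at 0 to 0.375 CPM in PV and 4.51 to 136 CPM in TV (-7.69 ± 0.96, adjusted p = 0.00267). ABCC8, the sulfonylurea receptor of potassium channels, had no count in any PV library and 440 counts over the TV libraries, and was at least 156.4-fold higher in TV against a floor of 3 counts over the PV group. TV L280 held 281 of these counts, and without its rabbit, that of PV L279, the bound was 58.2-fold and the call was lost. The channel gene KCNJ3 had 3 counts in PV and 1925 in TV, a ratio of 684 (95% counting interval 233.8 to 3321). The filter on low counts left it out, since TV L168 held it at 0.264 CPM. It was called higher in TV with no filter (log2 fold change -8.85, adjusted p = 0.00018) and without the rabbit of TV L168 (-9.46, 2.48e-06).

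Pacemaker and channel genes followed in part. HCN4, the pacemaker channel, was at 0 to 0.177 CPM in PV (7 counts in all) and 0.875 to 3.42 CPM in TV (-4.92 ± 0.50, adjusted p = 0.00116). GJC1 (connexin 45 of the conduction system) was 2.56-fold higher in TV. Of 12 tested conduction genes, 7 were higher in TV and 1, ISL1, in PV. Of 34 tested ion channel genes 13 were higher in TV, among them SCN1A (5.04-fold) and SCN7A (18.5-fold), and 5 in PV, among them KCNK2 and KCNMB1.

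A neurofilament gene and several fat cell genes were higher in TV. NEFL, the light neurofilament of axons, was at 0.168 to 1.43 CPM in PV and 15.0 to 207 CPM in TV (-7.11 ± 0.42, adjusted p = 0.000144). Of 11 tested Schwann cell genes 3 were higher in TV, SCN7A among them, and ERBB3 was higher in PV. The median log2 fold change of that list was 0.08, and its summed level was higher in PV in 7 of 7 rabbits (766 to 948 CPM in PV, 697 to 856 CPM in TV). ADIPOQ (adiponectin, secreted by fat cells) was at 0 to 2.3 CPM in PV and 4.35 to 67.9 CPM in TV (-4.91 ± 0.82, adjusted p = 0.00849), and the lipid droplet gene CIDEC (14.4-fold) and the lipase LPL (21.2-fold) were higher as well, LPL not without the rabbit of TV L168 (adjusted p = 0.0805) nor without that of PV L153, L184, L279 or L242. Of 6 tested adipocyte genes 3 were higher in TV and 1, ACVR1C, in PV, and their summed level was higher in TV in 7 of 7 rabbits (10.7 to 105 CPM in PV, 73.0 to 592 CPM in TV).

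Called metabolic genes lay mostly on the TV side. Of 24 tested respiratory chain genes 11 were higher in TV and none in PV, with a median log2 fold change of -0.80, and of 30 fatty acid oxidation and glucose genes 14 were higher in TV and 1 in PV (median -0.81). The respiratory chain count was 22 without the rabbit of TV L168. NDUFS3, a subunit of complex I, was at 20.8 to 30.3 CPM in PV and 31.7 to 72.8 CPM in TV, and UQCRC1 of complex III was 2.55-fold and the muscle isoform COX7A1 of complex IV 11.6-fold higher, with UQCRC1 not called without the rabbit of PV L279. ACADVL, which starts the oxidation of very long chain fatty acids, was 2.48-fold, HK1 (hexokinase 1) 1.77-fold and PGAM2, the muscle phosphoglycerate mutase, 53.3-fold higher.

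Lists of smaller or mixed content are given by their counts, to be read against 2.53% higher in PV and 5.82% higher in TV over all genes. Of 13 tested genes of endocardium and valve endothelium, POSTN, EDN1 and HAPLN1 were higher in PV, and LYVE1 and BMX in TV. Of 12 arterial and venous genes 3 were higher in each valve. Of 19 cardiac transcription factors 2 were higher in PV and 3 in TV, and of 8 ventricular muscle genes 1 and 4. Of 20 elastic fibre genes 2 were higher in PV (FBN2 and LOX) and 2 in TV (FBLN2 and EMILIN3), and of 19 matricellular genes 2 and 3. Of 22 tendon and cartilage genes 1 was higher in PV and 2 in TV, and without the rabbit of TV L168 the counts were 6 and 1. Of 11 retinoic acid genes only RXRG was called (higher in TV, and not without the rabbit of TV L168, adjusted p = 0.0521, or of PV L153, L184, L279 or L242). MITF was the 1 called gene of 6 melanocyte genes (log2 fold change -0.97, lost without the rabbit of PV L153, L184 or L279) and WT1 of 2 mesothelium genes, both higher in TV. In the lymphocyte and red blood cell lists 1 gene each was tested, and edgeR and DESeq2 called 0 of them, with 0 at an unadjusted p under 0.05. The red blood cell gene ALAS2, named after its values were seen, was nonetheless higher in TV in 7 of 7 rabbits (1.37 to 7.99 CPM in PV, 4.05 to 62.3 CPM in TV) and was called without the rabbit of TV L168 (log2 fold change -0.69, adjusted p = 0.0496) and in the other 3 treatments (-1.80, adjusted p = 0.000936).

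Without the rabbit of TV L168 more genes were called in all, 3.63% higher in PV and 8.79% higher in TV instead of 2.53% and 5.82%, and these list counts, higher in PV and in TV, are to be read against that rise. Axon guidance went from 5 and 8 to 9 and 9, the TGF-beta and BMP pathway from 7 and 2 to 9 and 4, and the FGF, PDGF, VEGF and neuregulin list from 3 and 5 to 5 and 6. The Wnt list went from 4 and 4 to 4 and 5, the Notch and Hedgehog list from 1 and 0 to 2 and 2, and ion channels from 5 and 13 to 6 and 15. Smooth muscle went from 6 and 1 to 8 and 1, pericyte from 1 and 0 to 2 and 1, ventricular muscle from 1 and 4 to 1 and 3, and endocardium from 3 and 2 to 3 and 4. Among factors, the cardiac list went from 2 and 3 to 2 and 4 and the epicardial and cushion list from 1 and 7 to 2 and 8. Proteoglycans went from 5 and 4 to 7 and 5, elastic fibre from 2 and 2 to 3 and 3, matricellular genes from 2 and 3 to 3 and 3, and proteases from 3 and 4 to 2 and 5. Retinoic acid went from 0 and 1 to 1 and 0, complement from 0 and 0 to 1 and 0, and fatty acid and glucose metabolism from 1 and 14 to 1 and 19.

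**Figure D3:**
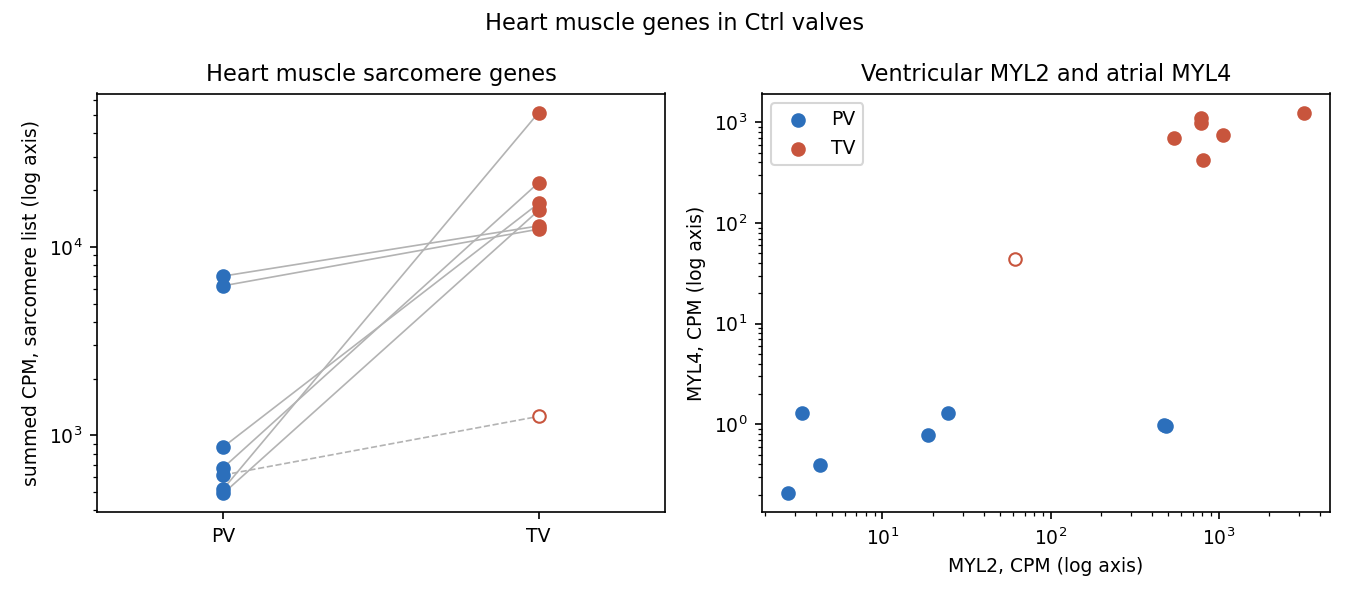
Heart muscle genes in the 7 PV (blue) and 7 TV (red) libraries of Ctrl rabbits, on log axes of CPM, with TV L168 hollow. Left, the summed CPM of the sarcomere list, joined by rabbit, overlapped between the valves (492 to 6990 CPM in PV, 1260 to 51500 CPM in TV). Right, MYL4 against MYL2 for each library: MYL4 did not overlap (at most 1.30 CPM in PV, at least 44.3 CPM in TV) although MYL2 did.

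Since heart muscle RNA moved with the valve, a muscle score (the mean log2 CPM of the heart muscle genes) was put beside the rabbit block. Genes of the heart muscle lists are part of the score, so their own values in this fit are set partly by it and are no test of them. With all 7 rabbits edgeR then called 0 genes (690 at an unadjusted p under 0.05), and DESeq2 called 119, of which 57 were higher in PV. The sign stayed for 339 of the 343 genes higher in PV and for 665 of the 788 higher in TV. Without the rabbit of TV L168 the same fit called 1.78% of 13647 genes, 107 higher in PV and 136 higher in TV, among them 74 and 86 of the genes above. ISL1 (log2 fold change 6.96, adjusted p = 0.000891), HOXA2 (7.34, 0.00828), TBX5 (-3.34, 0.00632), TCF21 (-2.55, 0.00902) and MEOX2 (-2.71, 0.000144) were in this set, but many other factor genes were not. Compared with the fit of the same 6 rabbits without the score, the counts higher in PV and in TV went from 2 and 0 to 1 and 0 for positional homeobox genes, from 5 and 3 to 2 and 1 for neural crest and outflow tract factors, from 2 and 8 to 0 and 4 for epicardial and cushion factors and from 2 and 4 to 1 and 1 for cardiac factors. Over all 13647 genes the same counts went from 496 and 1199 to 107 and 136. The list counts with the score are to be read against that fall, not against 3.63% and 8.79%. In PV it also held POSTN (1.13, 0.00134), COL12A1 (1.81, 0.00796), PRUNE2 (1.25, 0.00013), KCNK2 (1.16, 0.0273) and FST (2.58, 0.00159). CCL21 (-6.54, 0.119), SLIT3 (-1.33, 0.398), VCAN (0.16, 0.896), ADIPOQ (-1.05, 0.637) and NDUFS3 (-0.20, 0.795) did not pass there, and no respiratory chain gene did. CCL21 had lain between -5.93 and -5.29 in the fits without the score that left out 1 rabbit. Because the score and the valve moved together, the fit separates them with low precision. A gene not called with the score, with 6 or with 7 rabbits, is therefore not shown to lack a difference.

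**Figure D4:**
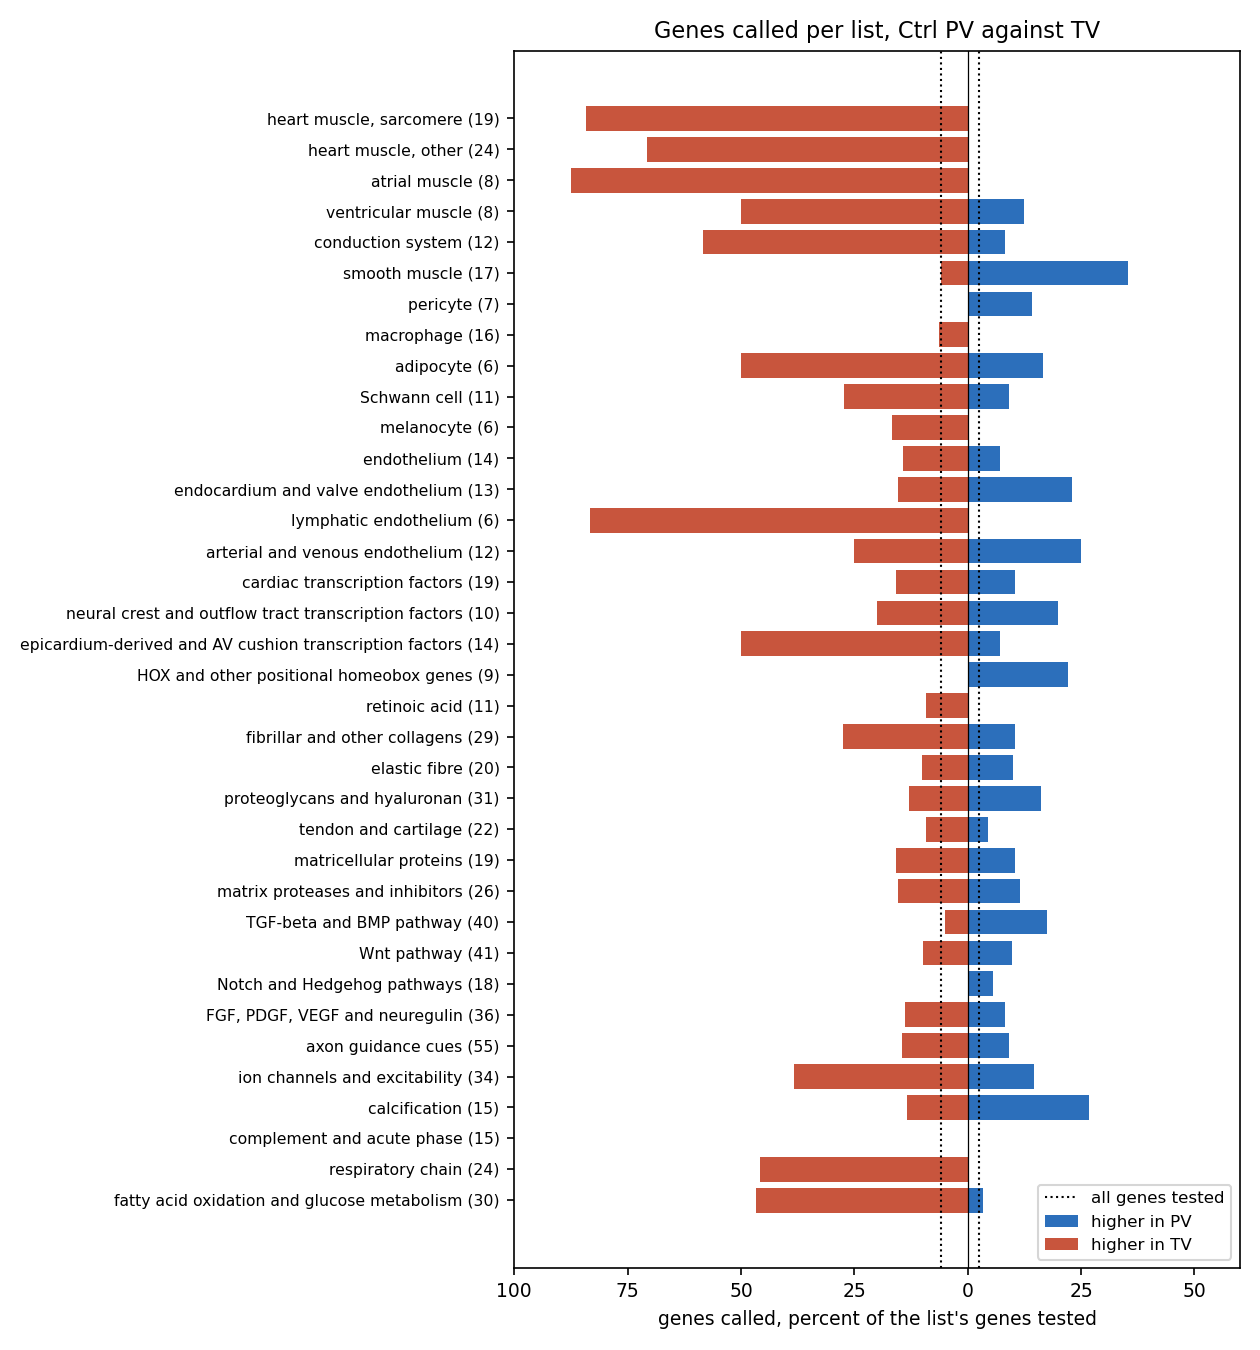
Percent of the tested genes of each list (number tested in brackets, lists with at least 5) that were called higher in PV (blue, to the right) or higher in TV (red, to the left) in Ctrl rabbits, with dotted lines at the percent over all 13543 genes (2.53 and 5.82). The atrial, sarcomere and lymphatic lists reach farthest to the TV side and the smooth muscle list farthest to the PV side.

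The same 7 rabbits gave 7 AoV and 6 MV libraries, so the outlet and inlet valves of the left side could be compared too. That comparison came from a fit of all 27 Ctrl valve libraries. The PV and TV libraries thus also entered its filter, its estimates of spread and its rabbit block. On a scale over these libraries COL1A1 was at 7730, 5410 and 6300 CPM in AoV L150, L166 and L261. In the other AoV libraries it was at 911 to 2700 CPM. Whether the AoV against MV counts rest on AoV L150, L166 and L261 was not tested. AoV against MV gave 517 of 15013 genes called (3.44%), 219 higher in AoV and 298 in MV, whereas DESeq2 called 1345 (8.96%), 882 higher in AoV and 463 in MV. Of the 343 genes higher in PV, 55 were also higher in AoV and 1 was lower, and of the 788 higher in TV, 106 were also higher in MV and 9 were lower. ISL1, TBX5 and TCF21 had the same direction on both sides. ISL1 was at 7.25 to 10.2 CPM in AoV and at 0 in all 6 MV libraries. TBX5 was at 0.0833 to 3.66 CPM in AoV and 26.2 to 45.9 CPM in MV, and TCF21 at 4.74 to 16.1 CPM and 44.7 to 98.3 CPM. HOXA2 (log2 fold change 5.42, AoV minus MV), PTN (1.47), FBN2 (1.46) and COL4A3 (1.49) were higher in AoV, and CCL21 (-5.57), MMRN1 (-6.14), FGF7 (-4.67), EPYC (-2.52) and KERA (-1.97) were higher in MV.

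A test of the difference of the differences (PV minus TV less AoV minus MV) passed an adjusted p of 0.05 for 1218 of 15013 genes (8.11%), among them 105 of the 343 and 349 of the 788. The 343 and 788 genes were picked for their PV minus TV difference, which is part of the tested difference. Their shares are raised by that choice and are no result about them. Without the rabbit of TV L168 the test passed for 580 of 14790 genes (3.92%), and with all rabbits for 2.29% with no filter on low counts, 18.1% with no replicate block and 25.4% with DESeq2. MSX2, SLIT3, NEFL, HCN4, POSTN, VCAN, FGF2, MYL4 and ATP2A2 passed in both fits. Of the genes named here, MSX2 was at 5.22 to 8.00 CPM in AoV and 5.97 to 10.9 CPM in MV and so had its difference on the right side (right minus left -1.74, adjusted p = 0.00187). SLIT3 had medians of 39.4 and 46.4 CPM on the left (-2.05, adjusted p = 0.0024), NEFL of 2.44 and 5.86 CPM (-6.21, adjusted p = 0.00187) and HCN4 of 1.06 and 0.506 CPM (-5.26, adjusted p = 0.00317). POSTN had medians of 3300 CPM in AoV and 3053 CPM in MV (1.16, adjusted p = 0.0111), VCAN of 6009 and 8091 CPM (1.09, adjusted p = 0.0107) and FGF2 of 78.6 and 86.9 CPM (1.60, adjusted p = 0.00917). Of the heart muscle lists 4 of 19 sarcomere genes and 9 of 24 others passed this test. MYL4 had medians of 4.83 CPM in AoV and 56.5 CPM in MV (right minus left -5.96, adjusted p = 0.00859), and ATP2A2 of 373 and 345 CPM (-2.21, adjusted p = 0.0026). The rabbit of TV L168 gave no MV library.

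**Figure D5:**
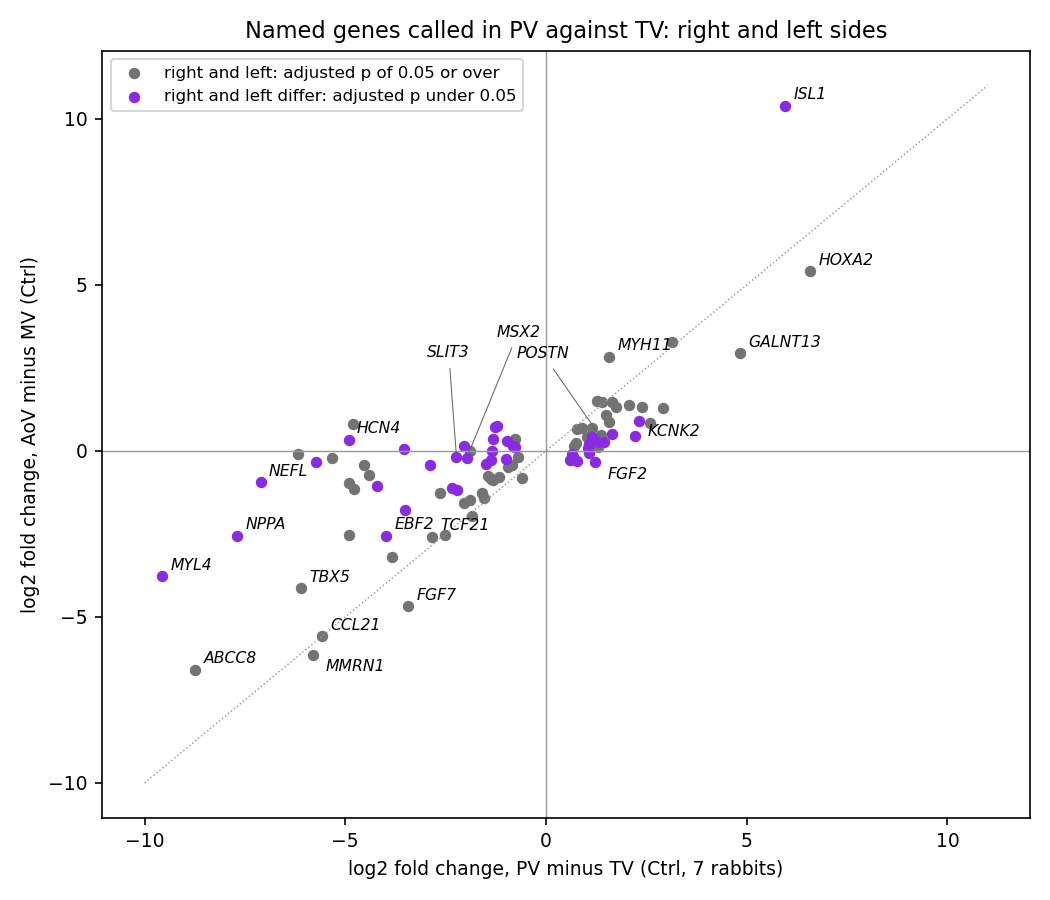
Log2 fold change of PV against TV (horizontal axis) and of AoV against MV (vertical axis) for the called genes named by rule, Ctrl rabbits, with purple points where the 2 sides differed at an adjusted p under 0.05. Points along the diagonal, such as TCF21 and CCL21, had like differences on both sides, and points near the horizontal line at 0, such as NEFL, SLIT3 and MSX2, differed on the right side. Values of ISL1 and ABCC8 depend on the prior count, since ISL1 had no count in MV and ABCC8 none in PV.

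In the 20 rabbits given CHT, Lard or IR/CHT, PV against TV gave 1596 of 15069 genes called (10.6%), 376 higher in PV and 1220 in TV. Without the Lard rabbit of L271 and L272, 1809 of 15024 genes (12.0%) were called, 448 higher in PV and 1361 in TV. In that rabbit the library labelled PV had ISL1 at 0.0926 CPM and TBX5 at 37.0 CPM, and the library labelled TV had them at 12.8 and 0.0684 CPM. In the other 19 rabbits ISL1 was at 8.75 to 15.8 CPM in PV and 0 to 0.40 CPM in TV, and TBX5 at 0 to 2.73 CPM and 12.3 to 129 CPM. The Lard rabbit was set apart for these markers, so their separation in the other 19 follows in part from that choice. Of the 343 Ctrl genes higher in PV, 207 were called in the same direction over the 19 rabbits and none in the opposite one, and of the 788 higher in TV the counts were 628 and none. Over the 20 rabbits none was called in the opposite direction either. POSTN had a log2 fold change of 1.27 over the 19 rabbits against 1.44 in Ctrl, COL12A1 1.75 against 1.58, TCF21 -2.74 against -2.83 and KCNK2 1.55 against 2.22.

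Whether the difference between the valves changed with treatment was tested as Ctrl minus the mean of the other 3 treatments. By edgeR 0 of 15372 genes passed an adjusted p of 0.05, 684 had an unadjusted p under 0.05, and DESeq2 called 2. Without the Lard rabbit edgeR called 0 of 15352 genes, and 634 had an unadjusted p under 0.05. The 54 libraries of that fit include the Ctrl libraries above.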

How the data were processed

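Valve RNA was sequenced from stranded total RNA libraries. The authors ran nf-core/rnaseq 1.4.2 on OryCun2.0 with Ensembl release 99 and deposited raw gene counts in 2 tables. All 134 columns matched a library, and 0 were left unused. Of 29587 genes listed, 14716 had a symbol, and genes were named where the symbol belonged to 1 gene (13065).

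Counts were filtered with filterByExpr, scaled by TMM and tested with edgeR 4.0.16 (quasi-likelihood, robust, R 4.3.3) with the rabbit as a block. A gene was called at a Benjamini-Hochberg adjusted p under 0.05 and a fold change over 1.5, and at the adjusted p alone for differences of differences. Libraries were paired by the animal they came from. Deviations of same-rabbit libraries from their valve means correlated at 0.0268 to 0.524 (median 0.299, over 0.1 in 6 of 7 rabbits), against a median of -0.0569 between rabbits. Both valves lay on plate 1 for 4 rabbits and on plate 2 for 1, and were split for 2. Alternatives used DESeq2 1.42.0, limma 3.58.1, other scalings, filters and covariates, and each rabbit left out. P-values measure the spread between these animals, and the ratio's interval and the floor cover counting error only. The authors named default pipeline settings apart from trimming, and no strand option, so reads of a gene and of an antisense partner may not be told apart.

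Named genes were, with a symbol and called, the 10 of smallest p and the 5 of largest fold (mean CPM of at least 1) in each direction, up to 3 of smallest p in each of 39 lists, and a set of cardiac and valve genes named whether or not called. Of that set TBX3, GATA6, NFATC1, TWIST1, MSX1, NR2F1, ELN, TNNT2 and MYL7 were not analysed here. ACVR1C, ALAS2, BMP5, BMP6, BMX, COL15A1, COL4A1, COL4A2, COL4A4, DES, EMILIN3, ENPP1, EYA4, HAS2, KCNJ3, LUM, PHEX, ROBO1, SEMA3D, VEGFA, ZFHX4 and the mitochondrial genes were chosen after their values were seen. The comparison and the lists were chosen with earlier results of these data known. Some genes of the lists are not reported here, though they are counted in them.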

Additional observations from a re-analysis of the deposited data

Results flagged for a closer look

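For each of 108 tested genes named by rule, the 7 libraries of each valve were searched for a value that lay apart from the other 6 by Dixon's criterion. Among 216 such groups 24 held an outlying library, where chance gives about 1 in 20, and 17 of the 24 were TV L168. That library was high for ACAN at 336 CPM (others 28.4 to 72.6), ACTA2 at 130 CPM (others 21.3 to 34.8), BGLAP at 11.3 CPM (others 0.115 to 0.6247), COL1A1 at 8860 CPM (others 365 to 525), COL3A1 at 9754 CPM (others 3052 to 3709), GATA4 at 200.2 CPM (others 30.8 to 42.1) and SOX9 at 235.96 CPM (others 19.4 to 42.9). It was low for the heart muscle genes CASQ2 at 12.1 CPM (others 361 to 1073), LDB3 at 16.5 CPM (others 107 to 398), MYL4 at 44.3 CPM (others 426 to 1255), MYOZ2 at 8.77 CPM (others 135 to 427) and PGAM2 at 8.51 CPM (others 56 to 220). It was also low for CARD6 at 121 CPM (others 221 to 273.9), ERG at 17.7 CPM (others 29 to 35.9), LRP6 at 230.6 CPM (others 327 to 377), PECAM1 at 112 CPM (others 398 to 717) and SCN7A at 2.9 CPM (others 21.4 to 53.8). The remaining outlying values were ACADVL at 14.8 CPM (others 24.4 to 34.5) in PV L153, ACTA2 at 390 CPM (others 109 to 179.3) in PV L263, COL6A6 at 91.9 CPM (others 161.5 to 218) in PV L167, EBF2 at 1.16 CPM (others 3.51 to 5.22) in PV L153, ERBB3 at 51.9 CPM (others 91 to 131) in PV L200, VWF at 46 CPM (others 79.9 to 119) in PV L153 and BMP3 at 4.46 CPM (others 10 to 14.7) in TV L243.

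For 41 of the 108 genes the difference between PV and TV differed from that between AoV and MV at an edgeR adjusted p under 0.05, against 8.11% of all genes (3.92% without the rabbit of TV L168). Most of these genes were named for a small p or a large fold in PV against TV, which is part of the tested difference. Without the rabbit of TV L168 all 41 kept their sign and 33 passed again, all but COX7A1, ERBB3, LOX, LRP6, NPPA, NRP2, RSPO3 and UCMA. The values below are log2 differences, PV minus TV less AoV minus MV. Negative values, with the right side more to the TV side, were found for ACADVL -1.65, ATP2A2 -2.21, COX7A1 -3.37, FHL2 -1.96, GJC1 -1.04, HCN4 -5.26, HK1 -0.96, MYL4 -5.96, NDUFS3 -0.89, NPPA -5.46, PGAM2 -4.81, SCN1A -1.23, SCN7A -2.97, SLC20A2 -1.08 and UQCRC1 -1.36. Other genes with a negative value were DCHS2 -1.71, DKK3 -2.0, EBF2 -1.41, FBLN2 -2.43, FGL2 -0.98, ISL1 -4.47, MITF -1.24, MSX2 -1.74, NEFL -6.21, NRP2 -0.72 and SLIT3 -2.05. The value of ISL1 rests on MV libraries that held no count and depends on the prior count of the fit. Positive values, with the right side more to the PV side, were found for BMP3 1.14, ERBB3 0.98, FGF2 1.60, HAPLN1 1.05, KCNK2 1.76, KCNMB1 1.37, LOX 0.94, LRP6 0.74, P3H2 0.88, PAPSS2 0.75, POSTN 1.16, RSPO3 0.90, SYNPO2 0.88, UCMA 1.15 and VCAN 1.09.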

How the results depend on the processing

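Counts are given as the percent of the genes tested that were called. PV against TV in Ctrl stood at 8.35% (1131 genes). The number of genes called kept within 1.5 times of 1131 with no replicate block (1232), the rabbit as a random block in limma-voom (1365), DESeq2 size factors (1126), upper-quartile scaling (1160), no filter (1123), at least 1 CPM in 7 libraries (1061), all 27 Ctrl valve libraries (1442), plate beside the block (1629) and rabbits with both valves on plate 1 (1040). With no filter the share was 4.79%, since 23441 genes were tested. Of the 1040 genes, 707 were called in the same direction in the main fit. The other settings of this list shared 951 to 1131 genes with it. DESeq2 called 12.8% and a test against the fold threshold itself (glmTreat) 2.53%. Leaving out 1 rabbit gave 3.82% to 12.4%. The muscle score beside the replicate block gave 0. Chosen after seeing the data, the score gave 0.879% with DESeq2 and 1.78% without the rabbit of TV L168, and leaving out the rabbits of PV L200 and PV L263 together gave 4.08%. AoV against MV stood at 3.44% and at 8.96% with DESeq2 (882 higher in AoV, 463 in MV). Right against left stood at 8.11%, at 18.1% with no replicate block, 25.4% with DESeq2, 2.29% with no filter and, chosen after seeing the data, 3.92% without the rabbit of TV L168. The change with treatment stood at 0, and at 0.013% with DESeq2. PV against TV in the other treatments stayed between 1437 and 1809 genes. The cause of these shifts was not tested.

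Of the 98 called genes named by rule, 82 were called whichever rabbit was left out. Without the block the log2 fold changes of 4 genes that were not called turned, ACAN (-0.05), CD68 (-0.07), GATA4 (-0.35) and SOX9 (-0.14). With the muscle score ACAN (-0.35), CD68 (-0.23), GATA4 (-0.66), SOX9 (-0.50), TNC (-0.95), VCAN (-0.10), LPL (0.60), MITF (0.04) and RXRG (1.07) turned. With it and without the rabbit of TV L168 it was LPL (0.97), MITF (0.06), RXRG (0.98) and PECAM1 (-0.12). MYL2 (1.76 and 2.15 in these fits) and MYOZ2 (0.44 and 0.42) are themselves part of the score, so their turn is no test. CD68 lay at -0.01 with at least 1 CPM in 7 libraries, at 0 with plate, and between -0.07 and -0.01 in 5 of the fits that left out a rabbit and at up to 0.19 in the others. GATA4 lay between -0.02 and 0.36 in those fits (0 without the rabbit of PV L242), and TNC between -0.10 and 0.57. Genes with few counts, such as HCN4 in PV, are limited by depth.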

Other observations

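Messenger RNAs encoded by the mitochondrial genome were at very different levels between the Ctrl rabbits. COX2, a subunit of complex IV, was at 1210 to 9860 CPM in all 12 valve libraries of the rabbits of PV L200, PV L279 and PV L242, and at 1.07 to 32.1 CPM in the 15 valve libraries of the other 4 Ctrl rabbits. COX3 was at 457 to 2980 CPM and 0.605 to 32.2 CPM in the same libraries, and CYTB at 767 to 6110 CPM and 0.356 to 9.59 CPM. Within the rabbits with high levels the TV lay above the PV, for COX2 at 4210 against 2790 CPM, 5530 against 1820 CPM and 9860 against 1700 CPM. In the rabbit of TV L168 the order was the other way, with COX2 at 1.15 CPM in the TV and 10.0 CPM in the PV. The rabbit block takes up a difference between animals, and its source was not tested.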
